A study of Mus musculus with 16 samples.

Results

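The genes described here were 10 members of the Notch pathway in primary murine gingival fibroblasts (mGF), out of 56941 genes in the count table. They comprised the fringe enzymes Lfng, Mfng and Rfng, the receptors Notch1, Notch2 and Notch3, the ligand Jag1, and the target genes Hes1, Hey1 and Heyl. The set was chosen by pathway membership with earlier results of these libraries known, and Lfng was selected on its low level after IL-1β relative to control. For Lfng, every comparison that holds control or IL-1β libraries is therefore a description without a test. Lfng was tested only between the 2 conditions that contain palmitate, and it is left out of the counts of genes in all other comparisons. For the other 9 genes, the p-values compare differences with the spread between libraries and are not independent evidence for the choice of genes.

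The study asked how metabolic and inflammatory stress, alone and combined, change the transcriptome of gingival fibroblasts. Cells were grown as explant cultures from the gingiva around the maxillary second molar of wild-type C57Bl6 mice aged 3 to 6 months, in medium with 20% serum, and were used between passages 2 and 8. Treatment lasted 24 h. Palmitate was given as a complex with bovine serum albumin (BSA), and BSA without the fatty acid was the vehicle control. Each condition had 4 libraries: BSA (control), IL-1β at 1 ng/mL, palmitate at 200 µM, and palmitate at 200 µM with IL-1β at 1 ng/mL (palmitate + IL-1β). Palmitate is a saturated fatty acid used to impose metabolic stress, and IL-1β is an inflammatory cytokine. The labels do not tie libraries to mice or cultures, so the spread between libraries may be technical.

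Libraries held 21234789 to 92752515 counts on genes, and all but palmitate replicate 10, the deepest, held at most 35329711. A count of 3, used as the detection floor, corresponded to 0.0331 to 0.146 CPM across libraries. CPM is the count of a gene scaled to a common library size, the total on tested genes times a normalization factor. All 10 fibroblast markers (among them Col1a1, Dcn and Pdgfra) were detected, with summed levels of 46010 to 57470 CPM. The summed markers of other cell types reached at most 2.79 CPM for endothelial cells, 1.27 CPM for epithelial cells, 4.35 CPM for leukocytes and 2.78 CPM for Schwann cells, and Tie1, Emcn, Krt1, Adgre1, Cd3e and Sox10 were at or below the floor in every library. Of 9 mural (pericyte and smooth muscle) markers, 7 were above the floor in some library and Kcnj8 and Higd1b in none. Abcc9, among the 7, had at most 7 counts in any library.

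Notch receptors are cell-surface proteins that are activated by Jagged or Delta-like ligands on neighbouring cells. Ligand binding exposes the receptor to cleavage by ADAM proteases and then by γ-secretase, and the released intracellular domain enters the nucleus, where it binds the DNA-binding protein RBPJ and the coactivator Mastermind. Genes of the Hes and Hey families, which encode transcriptional repressors, are the classical targets. The fringe enzymes Lunatic (Lfng), Manic (Mfng) and Radical (Rfng) extend O-fucose sugars on the receptor and alter which ligands it responds to. In connective tissue and vessel walls the pathway takes part in the communication between fibroblasts, mural cells and endothelium.

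The promoters of the targets Hes1 and Heyl and of Lfng are shown as examples, because RBPJ acts through DNA sites near such genes. Each sequence is the 250 bases before the annotated start of the gene's canonical transcript on the strand of the gene, 5′ to 3′, in GRCm39. They lie at chr16:29883877-29884126 (Hes1, plus strand), chr4:123127099-123127348 (Heyl, plus strand) and chr5:140592825-140593074 (Lfng, plus strand). Capitals mark matches of the RBPJ core letters TGGGAA on either strand, so a match on the opposite strand reads TTCCCA.
Hes1: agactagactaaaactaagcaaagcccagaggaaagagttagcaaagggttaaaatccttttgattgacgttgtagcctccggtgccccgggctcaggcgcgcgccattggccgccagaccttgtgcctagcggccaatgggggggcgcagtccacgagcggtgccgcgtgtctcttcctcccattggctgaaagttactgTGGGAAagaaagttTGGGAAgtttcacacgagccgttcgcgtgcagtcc
Heyl: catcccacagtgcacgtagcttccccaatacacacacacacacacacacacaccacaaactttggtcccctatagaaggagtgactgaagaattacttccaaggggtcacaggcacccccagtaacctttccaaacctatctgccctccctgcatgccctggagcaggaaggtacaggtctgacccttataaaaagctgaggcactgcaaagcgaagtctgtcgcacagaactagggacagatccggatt
Lfng: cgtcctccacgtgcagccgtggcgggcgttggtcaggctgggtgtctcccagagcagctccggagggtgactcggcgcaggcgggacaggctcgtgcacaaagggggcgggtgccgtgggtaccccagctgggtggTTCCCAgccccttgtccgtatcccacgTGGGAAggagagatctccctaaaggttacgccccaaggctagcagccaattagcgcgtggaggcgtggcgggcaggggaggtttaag

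Hes1 held a pair of matches on its own strand, from 49 to 44 and from 35 to 30 bases before the start. Heyl held none. Lfng held 2 matches, at 114 to 109 bases on the opposite strand and at 87 to 82 bases on its own strand. Hes1 and Lfng each held 1 match of the longer form GTGGGAA, which contains TGGGAA. Among 21757 promoters of protein-coding genes of the same length, 22.7% held TGGGAA and 5.47% held GTGGGAA on either strand. A match is a run of letters only, and no binding was measured.

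**Figure D1:**
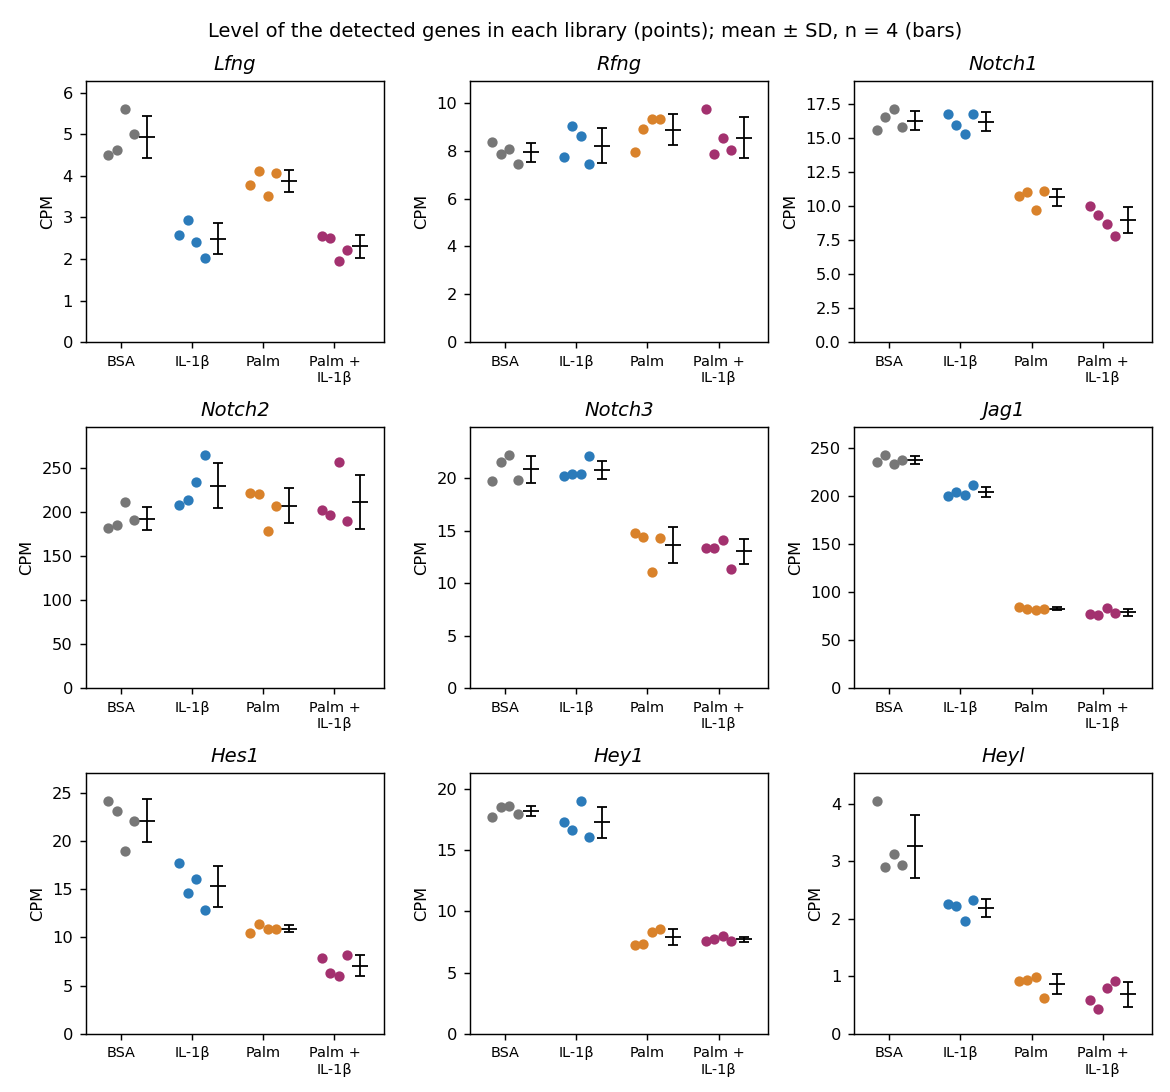
Level of each detected gene in CPM (vertical axes, each from 0) in the 16 libraries, by condition (horizontal axes), with palmitate shortened to Palm. Points are libraries and bars are the mean ± SD of 4. The 4 palmitate libraries lie below the 4 BSA libraries for Jag1, Hes1, Hey1, Heyl, Notch1, Notch3 and Lfng (Lfng without a test), and the Notch2 and Rfng libraries overlap.

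Jag1, the only Jagged or Delta-like ligand found at a high level, had the largest change in CPM with palmitate among the 10 genes. In BSA its 4 libraries read 235.8, 243.1, 233.5 and 237.8 CPM, and in palmitate they read 84.8, 82.8, 80.8 and 82.7 CPM. IL-1β alone gave 200.5, 204, 201 and 212 CPM, and palmitate + IL-1β gave 77.1, 75.6, 83.8 and 78.2 CPM. The BSA, IL-1β and palmitate libraries formed 3 ranges that did not overlap, while palmitate and palmitate + IL-1β overlapped. Jag1 fell by 1.52 on the log2 scale with palmitate (SE 0.04, adjusted p = 5.5e-24, edgeR quasi-likelihood test over 16306 genes), a 2.87-fold lower level. With IL-1β it fell by 0.22 (SE 0.04, adjusted p = 1.6e-04) and with palmitate + IL-1β by 1.59 (SE 0.04, adjusted p = 1.3e-24). Because these are bulk RNA samples, fewer cells of a type and less RNA per cell cannot be told apart, here and below.

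Per kb of exon, Jag1 made up 99.5% ± 0.0536 (SD, n = 4) of the summed level of Jag1, Jag2, Dll1, Dll3 and Dll4 in BSA and 98.6% ± 0.279 in palmitate. Dll1 was the next Jagged or Delta-like ligand by its level per kb and stood at 0.831 ± 0.171 CPM in BSA and 0.773 ± 0.0380 CPM in palmitate. Dll3 and Dll4 had at most 2 counts in any library.

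Among the receptors, Notch1 and Notch3 fell with palmitate and Notch2 did not pass the test in any comparison. Notch1 libraries read 15.6, 16.5, 17.1 and 15.8 CPM in BSA, 16.8, 16.0, 15.3 and 16.7 CPM in IL-1β, 10.7, 11.0, 9.73 and 11.1 CPM in palmitate, and 9.97, 9.36, 8.71 and 7.77 CPM in palmitate + IL-1β. Every library with palmitate was below every library without it. Notch1 fell by 0.61 on the log2 scale with palmitate (SE 0.07, adjusted p = 3.9e-08) and by 0.85 with palmitate + IL-1β (SE 0.07, adjusted p = 3.1e-11), and its difference with IL-1β alone was -0.01 (95% interval -0.15 to 0.14, adjusted p = 0.965).

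Notch3, a receptor known mainly from mural cells, read 19.7, 21.6, 22.2 and 19.8 CPM in BSA and 20.3, 20.4, 20.4 and 22.1 CPM in IL-1β. In palmitate it read 14.8, 14.4, 11.1 and 14.3 CPM, and in palmitate + IL-1β 13.3, 13.4, 14.2 and 11.4 CPM. The libraries split by palmitate without overlap, as those of Notch1 did. Notch3 fell by 0.61 on the log2 scale with palmitate (SE 0.08, adjusted p = 1.1e-07) and by 0.67 with palmitate + IL-1β (SE 0.08, adjusted p = 1.2e-08). Its difference with IL-1β alone was -0.00 (adjusted p = 0.981).

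Notch2 was the most abundant receptor, with 192 ± 13.4 CPM in BSA, 230 ± 26.0 CPM in IL-1β, 207 ± 20.0 CPM in palmitate and 211 ± 31.0 CPM in palmitate + IL-1β (SD, n = 4 each). The ranges of all 4 conditions overlapped. The log2 difference was 0.11 with palmitate (95% interval -0.13 to 0.34, adjusted p = 0.491) and 0.26 with IL-1β (adjusted p = 0.137). A fit with only the 8 libraries of IL-1β and BSA called the IL-1β difference (0.26), so that call depends on which libraries set the spread.

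Summed per kb of exon over Notch1 to Notch4, Notch2 contributed 82.4% ± 0.737 of the receptor level in BSA and 84.9% ± 1.06 in IL-1β. Its share was 88.5% ± 0.328 in palmitate alone and 89.5% ± 1.11 when IL-1β was present too. The share in each of the 3 treated conditions was above that in BSA in every library. Each difference had p = 0.0286 in a two-sided exact permutation test, the smallest p that 4 libraries against 4 allow, and adjustment over these 3 tests left it at 0.0286. The share also moves with Notch1 and Notch3, which fell in both conditions with palmitate. There the test of the share restates those falls and is not separate evidence of a change in Notch2. Notch4 was low, at 1.55 ± 0.431 CPM in BSA and 1.08 ± 0.118 CPM in palmitate, a difference that missed the threshold (adjusted p = 0.0508). It passed with palmitate + IL-1β, where it fell by 0.64 on the log2 scale (SE 0.23, adjusted p = 0.0205) although the libraries overlapped.

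Markers of mural cells were examined beside Notch3 and Heyl, which such cells express. The summed level of the 9 markers was 291.5 to 316 CPM in BSA, 286 to 302 CPM in IL-1β, 279 to 297 CPM in palmitate and 243 to 282.5 CPM in palmitate + IL-1β. The palmitate range overlapped that of BSA, and the palmitate + IL-1β range lay below it. Most of the sum came from Cnn1, Mcam and Cspg4, with BSA means of 119, 103 and 56.1 CPM. In BSA Myh11 stood at 20.9 CPM, Rgs5 at 4.26 CPM, Des at 1.57 CPM and Abcc9 at 0.0632 CPM, with Kcnj8 and Higd1b at or below the floor. Single markers passed in opposite directions: Mcam differed by -0.16 on the log2 scale with palmitate (adjusted p = 0.013) and by -0.37 with palmitate + IL-1β (adjusted p = 4.3e-07), and Myh11 by 0.25 (adjusted p = 0.00318) and 0.22 (adjusted p = 0.00758). Cnn1 differed by -0.11 with palmitate (adjusted p = 0.167) and by -0.29 with palmitate + IL-1β (adjusted p = 3.5e-04). The part of these cells in the levels of Notch3 and Heyl was not tested.

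The 3 targets Hes1, Hey1 and Heyl all fell with palmitate, and Hes1 and Heyl also fell with IL-1β alone. Hes1, a repressor that feeds back on its own gene, read 24.2, 23.1, 19.0 and 22.1 CPM in BSA and 17.7, 14.6, 16.1 and 12.8 CPM in IL-1β. In palmitate it read 10.4, 11.3, 10.8 and 10.9 CPM, and in palmitate + IL-1β 7.85, 6.29, 5.98 and 8.18 CPM. The 4 conditions formed 4 separate ranges, ordered from BSA through IL-1β and palmitate to palmitate + IL-1β. On the log2 scale Hes1 fell by 1.02 with palmitate (SE 0.09, adjusted p = 8.7e-10), by 0.53 with IL-1β (SE 0.09, adjusted p = 1.3e-04) and by 1.65 with palmitate + IL-1β (SE 0.10, adjusted p = 8.4e-14), each against BSA.

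Hey1 responded to palmitate and showed no detectable difference with IL-1β. Its libraries read 17.8, 18.5, 18.7 and 17.9 CPM in BSA, 17.3, 16.7, 19.1 and 16.1 CPM in IL-1β, 7.29, 7.37, 8.30 and 8.59 CPM in palmitate, and 7.59, 7.74, 8.01 and 7.59 CPM in palmitate + IL-1β. Libraries with palmitate were all below 9 CPM and libraries without it all above 16 CPM. Hey1 fell by 1.22 on the log2 scale with palmitate (SE 0.07, adjusted p = 4.2e-15), and its difference with IL-1β was -0.07 (95% interval -0.21 to 0.06, adjusted p = 0.536).

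Heyl was the least abundant of the 3 targets and had the largest fold. It read 4.05, 2.91, 3.13 and 2.94 CPM in BSA and 2.25, 2.23, 1.96 and 2.32 CPM in IL-1β. In palmitate it read 0.923, 0.937, 0.991 and 0.616 CPM, and in palmitate + IL-1β 0.595, 0.430, 0.804 and 0.921 CPM, where the counts were 13 to 25 a library. The BSA, IL-1β and palmitate ranges were separate, and the palmitate and palmitate + IL-1β ranges overlapped. Heyl fell by 1.88 on the log2 scale with palmitate (SE 0.19, adjusted p = 8.8e-10), by 2.26 with palmitate + IL-1β (SE 0.20, adjusted p = 4.3e-11) and by 0.58 with IL-1β (SE 0.17, adjusted p = 0.0181). The IL-1β difference did not pass when BSA replicate 1 (-0.46) or IL-1β replicate 7 (-0.53) was left out.

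**Figure D2:**
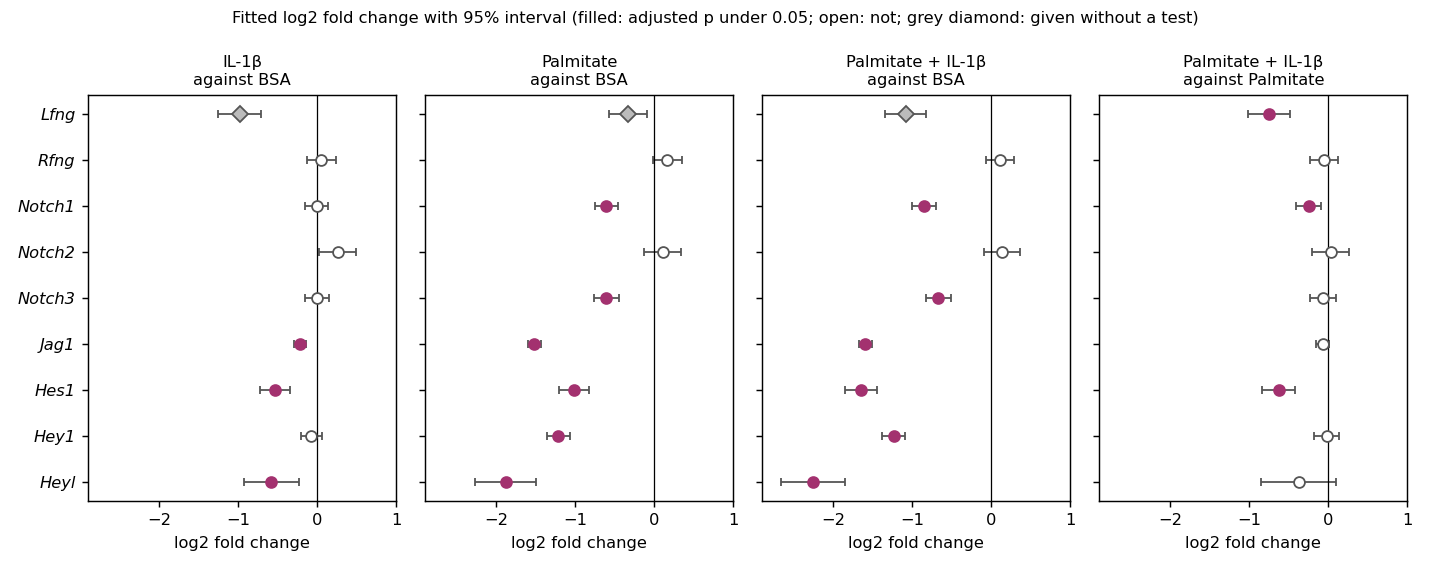
Fitted log2 fold change (horizontal axes) of the 9 detected genes in 4 comparisons, with 95% intervals. Filled circles passed at an adjusted p under 0.05, open circles did not, and grey diamonds are Lfng values given without a test. Jag1, Hes1, Hey1, Heyl, Notch1 and Notch3 are filled and below 0 in both comparisons of a palmitate condition with BSA.

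Against BSA, 6 of the 8 genes tested were lower with palmitate and none was higher, where 17.5% of all genes tested were lower and 19.8% were higher. Mfng was too low to be tested and Lfng was not counted. With palmitate + IL-1β the same 6 genes were lower, beside 22.5% of all genes lower and 24.8% higher. With IL-1β, 3 of the 8 (Jag1, Hes1 and Heyl) were lower, beside 4.97% of all genes lower and 10.1% higher. The median log2 difference of the 8 genes was -0.81 with palmitate, -1.04 with palmitate + IL-1β and -0.04 with IL-1β, while the medians of all genes lay between -0.01 and 0.00. These 3 comparisons share the same BSA libraries. Under upper-quartile scaling the share of all passing genes that were higher went from 53.1% to 37.1% with palmitate, from 52.4% to 38.7% with palmitate + IL-1β and from 67.1% to 43.5% with IL-1β, and the counts of Notch genes stayed at 6, 6 and 3.

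The fringe genes differed from each other. Lfng read 4.50, 4.62, 5.61 and 5.00 CPM in BSA, 2.58, 2.93, 2.41 and 2.03 CPM in IL-1β, 3.79, 4.11, 3.53 and 4.07 CPM in palmitate, and 2.55, 2.51, 1.96 and 2.21 CPM in palmitate + IL-1β. The libraries with IL-1β all lay below those without it, whether or not palmitate was present. Without IL-1β, the palmitate libraries lay below those of BSA. The IL-1β difference of Lfng against BSA, -0.98 on the log2 scale (SE 0.13), is the value it was selected on. The palmitate difference against BSA was -0.33 (SE 0.12) and that of palmitate + IL-1β was -1.09 (SE 0.13), both without a test.

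The value Lfng was selected on used no library of the conditions that contain palmitate, although their results were also known. Between those conditions Lfng fell with IL-1β by 0.75 log2 units (SE 0.13, adjusted p = 1.5e-04). The means were 3.87 ± 0.272 CPM in palmitate and 2.31 ± 0.277 CPM in palmitate + IL-1β. The exact permutation test of these CPM gave p = 0.0286, two-sided, again the smallest possible.

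Rfng read 7.93 ± 0.383 CPM in BSA, 8.21 ± 0.733 CPM in IL-1β, 8.88 ± 0.641 CPM in palmitate and 8.54 ± 0.847 CPM in palmitate + IL-1β, and passed in no comparison. Mfng had no count in 14 libraries, 1 count in palmitate + IL-1β replicate 13 and 2 counts in replicate 14, all at or below the floor of 3. Per kb of exon, Lfng therefore made up 43.1% ± 2.87 of the fringe level in BSA and 26.9% ± 2.02 in IL-1β. The same share was 34.8% ± 2.28 in palmitate alone and 24.8% ± 2.47 when IL-1β was present too, with nearly all of the rest from Rfng.

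With IL-1β added to palmitate, 3 of the 9 genes tested (Lfng, Hes1 and Notch1) were lower, beside 4.1% of all genes lower. Lfng was selected on its low level after IL-1β, so its place in this count is not independent of that choice. Hes1 fell by 0.63 on the log2 scale (SE 0.10, adjusted p = 1.2e-04) with no overlap of libraries. Notch1 fell by 0.25 (SE 0.08, adjusted p = 0.0351), its libraries overlapped, and it no longer passed when palmitate replicate 9, 10 or 12 or palmitate + IL-1β replicate 15 or 16 was left out (-0.19 to -0.25). For Jag1, Hey1 and Notch3 the differences were -0.07, -0.02 and -0.06 and did not pass (adjusted p = 0.304, 0.927 and 0.707). Heyl differed by -0.38 with a 95% interval from -0.85 to 0.10.

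With palmitate added to IL-1β, 6 of the 8 genes tested were lower, beside 16.1% of all genes. Jag1 fell by 1.38 on the log2 scale (SE 0.04, adjusted p = 1.8e-22), Hey1 by 1.16 (SE 0.07, adjusted p = 3.2e-14) and Hes1 by 1.11 (SE 0.10, adjusted p = 1.1e-09). Compared directly, palmitate was below IL-1β for 6 of 8 genes, beside 15.2% of all genes. The log2 difference for Hes1, palmitate against IL-1β, was -0.49 (SE 0.10, adjusted p = 2.9e-04). Lfng stood the other way, with 3.87 CPM in palmitate and 2.49 CPM in IL-1β, a description only.

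The interaction asks whether the change with both agents differs from the sum of their separate changes on the log2 scale. It passed for 0 of the 8 genes with edgeR and for 0 with DESeq2, beside 1.99% of all genes with edgeR. At an unadjusted p under 0.05 there were 2, Jag1 with 0.14 (95% interval 0.03 to 0.26, adjusted p = 0.303) and Notch1 with -0.24 (95% interval -0.45 to -0.03, adjusted p = 0.393). The interval for Hes1 was -0.38 to 0.19 and that for Heyl was -0.39 to 0.81, so departures from additivity of this size were not resolved.

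**Figure D3:**
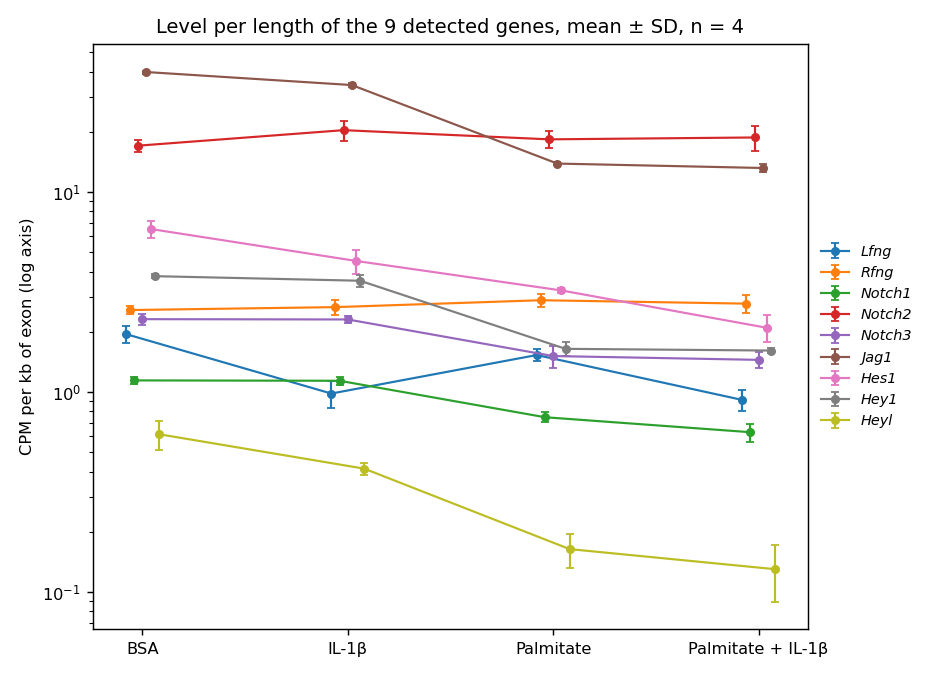
Mean level in CPM per kb of exon (vertical axis, log scale) ± SD of 4 libraries for the 9 detected genes in each condition. The Jag1 line runs from 39.9 in BSA to 13.9 in palmitate and crosses that of Notch2, which stays between 17.1 and 20.4.

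Levels can be compared between genes only per length, here as CPM per kb of exon. In BSA the order was Jag1 (39.9 ± 0.683), Notch2 (17.1 ± 1.19), Hes1 (6.54 ± 0.660), Hey1 (3.80 ± 0.0910), Rfng (2.57 ± 0.124), Notch3 (2.31 ± 0.140), Lfng (1.95 ± 0.197), Notch1 (1.14 ± 0.0486) and Heyl (0.615 ± 0.102), with Mfng at 0. Rfng overlapped Notch3, and Notch3 overlapped Lfng, across libraries. IL-1β kept this order apart from Lfng, at 0.982 ± 0.148, which overlapped Notch1 at 1.14 ± 0.0497. There Hey1 (3.60 ± 0.269) also overlapped Hes1 (4.53 ± 0.618), and Notch3 overlapped Rfng. In palmitate Notch2 (18.4 ± 1.77) stood above Jag1 (13.9 ± 0.276), and Hey1 (1.64 ± 0.136), Lfng (1.53 ± 0.108) and Notch3 (1.51 ± 0.193) overlapped as neighbours. Rfng (2.88 ± 0.208) stood above Hey1 in palmitate. In palmitate + IL-1β Rfng (2.77 ± 0.275) stood above both Hes1 (2.10 ± 0.326) and Hey1. No neighbours overlapped there.

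The other genes of the pathway, 64 in all of which 58 could be tested, passed in both directions in shares near those of all genes for the palmitate conditions. With palmitate 13 (22.4%) were higher and 14 (24.1%) lower, beside 19.8% and 17.5% of all genes. With palmitate + IL-1β 16 (27.6%) were higher and 17 (29.3%) lower, beside 24.8% and 22.5%. With IL-1β 11 (19.0%) were higher and 4 (6.90%) lower, beside 10.1% and 4.97%. Their median log2 difference was -0.00 with palmitate. The list was written with earlier results known.

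**Figure D4:**
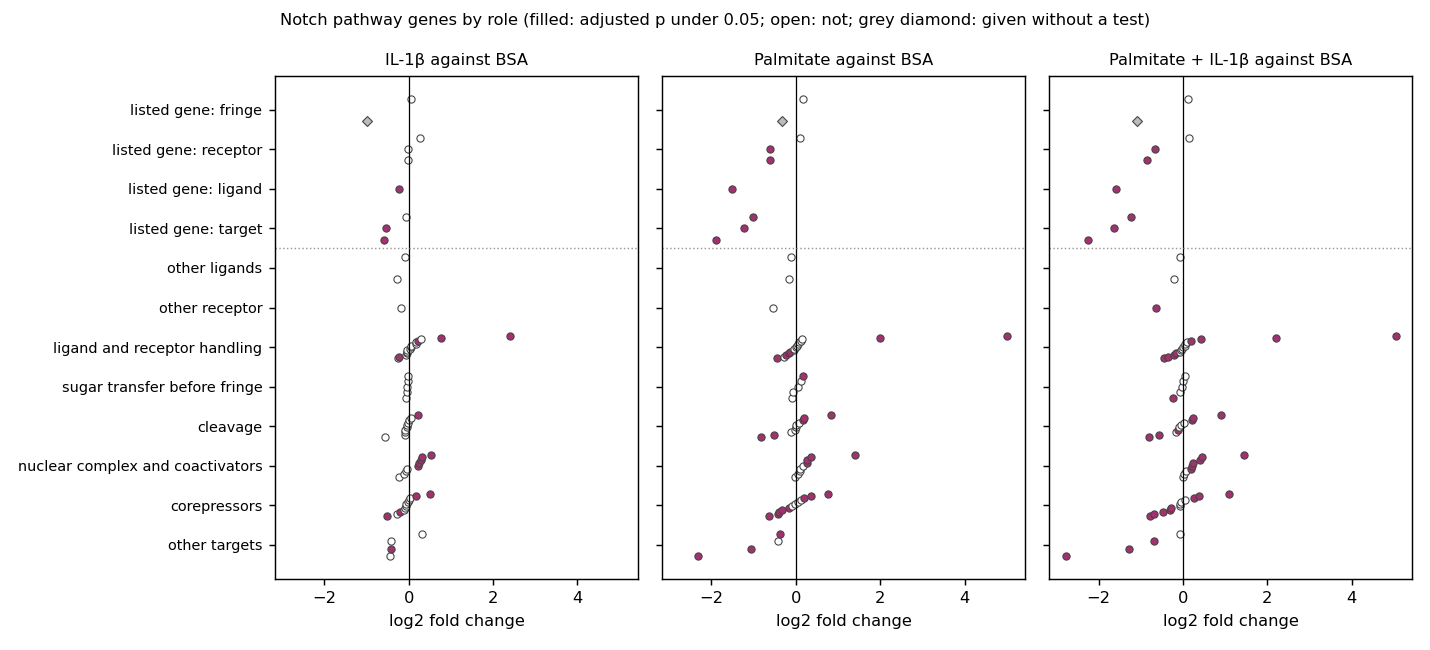
Log2 fold change (horizontal axes, shared scale) of each Notch pathway gene against BSA, by role. Filled circles passed at an adjusted p under 0.05, open circles did not and grey diamonds are Lfng, with the 10 described genes (less Mfng) above the dotted line. With palmitate 3 of the 4 other targets are filled and below 0, and the nuclear complex has 4 filled circles above 0.

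Of the 4 other target genes tested, 3 were lower with palmitate (Hey2, Nrarp and Hes6), beside 17.5% of all genes. Hey2, a repressor related to Hey1, read 2.66, 1.97, 2.71 and 2.69 CPM in BSA and 0.729, 0.397, 0.514 and 0.534 CPM in palmitate. It fell by 2.31 on the log2 scale (SE 0.24, adjusted p = 1.8e-09), with no overlap of libraries, and by 2.78 with palmitate + IL-1β (SE 0.26, adjusted p = 9.9e-11). Nrarp, which encodes a feedback inhibitor of the Notch complex, fell by 1.06 with palmitate (SE 0.40, adjusted p = 0.0343) on only 4 to 18 counts a library, and its libraries overlapped. Hes6, a Hes family member that antagonises Hes1, fell by 0.38 with palmitate (SE 0.10, adjusted p = 0.00191) and by 0.42 with IL-1β (SE 0.10, adjusted p = 0.00299).

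Of 9 genes for the nuclear complex and its coactivators, 4 were higher, none was lower and 5 did not pass with palmitate, beside 19.8% of all genes higher. With IL-1β 5 were higher and none lower, beside 10.1% of all genes higher. Rbpj, the DNA-binding partner of the Notch intracellular domain and a repressor in its absence, read 149, 150, 165 and 162 CPM in BSA and 412.5, 403, 401 and 437 CPM in palmitate. The IL-1β libraries, at 216, 214, 217 and 252 CPM, lay between them. Rbpj rose by 1.40 on the log2 scale with palmitate (SE 0.05, adjusted p = 1.2e-20), by 0.52 with IL-1β (SE 0.05, adjusted p = 2.2e-09) and by 1.45 with palmitate + IL-1β (SE 0.05, adjusted p = 3.4e-21). Reads of Rbpj can match processed copies such as Rbpj-ps3, listed separately, so its level is uncertain to that extent.

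Among corepressors 3 of 12 (25.0%) were higher and 5 (41.7%) lower with palmitate, beside 19.8% and 17.5% of all genes. Spen, a corepressor that RBPJ recruits, rose by 0.75 on the log2 scale with palmitate (SE 0.09, adjusted p = 2.7e-06) and by 1.10 with palmitate + IL-1β (SE 0.09, adjusted p = 1.5e-08). The Groucho-family genes Tle2 and Tle6 fell with palmitate by 0.64 (SE 0.12, adjusted p = 2.4e-04) and 0.43 (SE 0.10, adjusted p = 0.00149).

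Of 10 genes for receptor cleavage, 3 were higher and 2 lower with palmitate, close to the 19.8% and 17.5% of all genes. Adam17, a protease with many surface substrates, read 56.2, 53.8, 52.2 and 54.2 CPM in BSA and 99.4, 97.5, 94.8 and 92.2 CPM in palmitate, and rose by 0.83 on the log2 scale (SE 0.04, adjusted p = 8.9e-17). Adam10, the protease that makes the ligand-dependent cut, differed by -0.02 (95% interval -0.10 to 0.06, adjusted p = 0.711). Aph1b and Aph1c, γ-secretase subunits encoded by close copies of each other and so uncertain, fell by 0.51 (SE 0.07, adjusted p = 5.4e-07) and 0.83 (SE 0.20, adjusted p = 0.00166).

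In the handling of ligands and receptors 2 of 15 genes (13.3%) were higher and 4 (26.7%) lower with palmitate, beside 19.8% and 17.5% of all genes. Dtx3l, a ubiquitin ligase of the Deltex family, went from 34.1 to 136 CPM (means of 4) and rose by 2.00 on the log2 scale (SE 0.06, adjusted p = 9.9e-23). Neurl3, a Neuralized-family ubiquitin ligase, went from 0 to 5 counts a library in BSA to 58 to 269 counts in palmitate, a rise of 5.00 in the fit (SE 0.30, adjusted p = 7.0e-15) whose size rests on near-absent BSA counts. Of the 5 sugar transferases that act before the fringe enzymes, 1 was higher and none lower with palmitate (19.8% and 17.5% of all genes), and neither of the other ligands tested, Dll1 and Dlk1, passed.

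Genes with the pattern nearest to 1 gene of each role were found by the root mean square (RMS) difference of centred log2 CPM over the 16 libraries. Nearest to Jag1 were Plce1 (0.082), Map2 (0.092) and Npr3 (0.095), against 0.730 for the RMS of Jag1 about its own mean. Nearest to Notch3 were Irs1 (0.077), Lrp6 (0.081) and Chst15 (0.085), and nearest to Heyl were Plekhg4 (0.275), Mecom (0.280) and Npr3 (0.293), where the low counts of Heyl limit the likeness. Nearest to Lfng were Izumo4 (0.166), Mvk (0.167) and Dhcr7 (0.217), the last pair encoding enzymes of sterol synthesis. The RMS of Lfng about its own mean was 0.468, so this likeness was looser than that found for Jag1. These are descriptions of likeness without a test.

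In GRCm39 the genes lie on chromosomes 5 (Lfng, 140593075 to 140601300), 15 (Mfng, 78640074 to 78657718), 11 (Rfng, 120671370 to 120675329), 2 (Notch1, 26347915 to 26406675, and Jag1, 136923373 to 136958693), 3 (Notch2, 97920800 to 98057677, and Hey1, 8726956 to 8732385), 17 (Notch3, 32339794 to 32385893), 16 (Hes1, 29882134 to 29886643) and 4 (Heyl, 123127349 to 123143682). Their identifiers are ENSMUSG00000029570.6 (Lfng), ENSMUSG00000018169.13 (Mfng), ENSMUSG00000025158.8 (Rfng), ENSMUSG00000026923.16 (Notch1), ENSMUSG00000027276.8 (Jag1), ENSMUSG00000027878.12 (Notch2), ENSMUSG00000040289.9 (Hey1), ENSMUSG00000038146.9 (Notch3), ENSMUSG00000022528.9 (Hes1) and ENSMUSG00000032744.5 (Heyl). All are protein-coding genes, and counts were summed over their exons, untranslated regions included. Notch2 shares 4.80% of its exon bases with Gm42820 on its own strand. Exons of noncoding genes on the opposite strand cover 14.0% of Notch1 (0610009E02Rik), 8.92% of Notch3 (Gm17276) and 5.65% of Hey1 (Gm64520), and the name of the deposited table refers to strand, but the strand setting of the counting is not given in the sources used here, so reads there may not be separable.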

How the data were processed

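Bulk RNA-seq was measured in 16 mGF libraries. The submitters' processing notes name Trimmomatic 0.39 for the reads, STAR 2.7.10a and the GRCm39 build for alignment, and HTSeq 2.0.9 for the counting per gene that the authors did. The annotation was GENCODE. Library preparation is described differently in the labels (a stranded total RNA kit) and in the study's methods (oligo(dT) priming). The deposited values are raw counts, not normalized, and 18.3 to 21.4% of each library fell on rows that name no gene and were left out.

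Counts were filtered with filterByExpr (minimum count 10, minimum total 15), scaled by TMM (factors 0.970 to 1.04) and fitted in 1 model of all 16 libraries with edgeR 4.0.16 (R 4.3.3, robust quasi-likelihood), with Benjamini-Hochberg adjustment over 16306 genes and a threshold of 0.05. CPM are counts scaled to the total on the tested genes of each library times its TMM factor. Levels per kb used the union of exons of a later GENCODE release than the authors' in the same build, and promoters came from its genome. Intervals are at 95%, and the floor of 3 counts covers counting error only. All 24 pairs of replicates differed by more than sampling noise (chi-square per degree of freedom 2.66 to 19.9). Members and lists were chosen with earlier results of these data known. The genes named are the 10 members, the listed pathway genes that passed against BSA with a log2 difference of at least 0.5, Rbpj, Adam10, Adam17 and Nrarp, and the 3 nearest patterns for Lfng, Notch3, Jag1 and Heyl. Some genes and sequences covered by these rules are not reported here. Alternatives were upper-quartile scaling, DESeq2 1.42.0, no filter, at least 10 counts in every library, only the 2 conditions compared, the longest transcript for length, and leaving out each library.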

Additional observations from a re-analysis of the deposited data

Results flagged for a closer look

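Of 96 groups of 4 libraries examined (the detected Notch genes and 15 named pathway genes by condition), 5 held a library far from the other 3, and chance alone gives about 1 in 20. Notch3 stood at 22.1 CPM in IL-1β replicate 8, where the others were at 20.3 to 20.4 CPM, and at 11.1 CPM in palmitate replicate 11, where the others were at 14.3 to 14.8 CPM. Rbpj stood at 252 CPM in IL-1β replicate 8 beside 214 to 217 CPM. Aph1b stood at 18.1 CPM in palmitate replicate 9 beside 14.9 to 15.0 CPM, and Hey2 at 1.97 CPM in BSA replicate 2 beside 2.66 to 2.71 CPM.

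The effect of IL-1β differed with and without palmitate, by the edgeR interaction test, for 3 of the 58 other pathway genes tested, beside 1.99% of all genes, and all 3 were named for passing against BSA. The interaction on the log2 scale was -0.47 for Rbpj (SE 0.07, adjusted p = 3.1e-05), -0.55 for Dtx3l (SE 0.08, adjusted p = 2.1e-05) and -2.35 for Neurl3 (SE 0.47, adjusted p = 0.00219). Rbpj went from 156.5 to 225 CPM with IL-1β in BSA, and from 413.5 to 428 CPM with IL-1β in palmitate. Dtx3l went from 34.1 to 57.5 CPM and from 136 to 157 CPM in the same order. For Neurl3 the BSA libraries held 0 to 5 counts.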

How the results depend on the processing

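No paired analysis was possible because the libraries are numbered 1 to 16 and no number is shared between conditions. Of 1314 values of single genes under an alternative, 1293 kept their direction and their side of the threshold, 7 were lost, 2 were gained and 12 changed sign. For the untested Lfng comparisons, kept means the same sign and a shift smaller than its SD between libraries of a condition. Many of the 1314 values come from leaving out a library of neither condition compared, where the fold has little room to change. The sign changes, 5 for Notch3 and 2 for Notch1 (IL-1β against BSA), 2 each for Notch2 and Hey1 (palmitate + IL-1β against palmitate) and 1 for Rfng (palmitate + IL-1β against IL-1β), came with 1 library left out. Over all libraries left out in turn, those values ran from -0.037 to 0.027 (Notch3), -0.034 to 0.020 (Notch1), -0.076 to 0.081 (Notch2), -0.063 to 0.022 (Hey1) and -0.022 to 0.107 (Rfng). The cause was not tested.

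Leaving out each library gave 2 to 4 passing genes with IL-1β and 2 to 3 for palmitate + IL-1β against palmitate, with Notch2 gained without palmitate + IL-1β replicate 15 (0.26). The counts stayed at 6 in the other pairwise comparisons and at 0 for the interaction. Over all genes these ranges were 1784 to 2648 with IL-1β, 5167 to 6284 with palmitate, 7254 to 7922 with palmitate + IL-1β, 1161 to 1775 for palmitate + IL-1β against palmitate, 5021 to 5875 against IL-1β, 4281 to 5352 for palmitate against IL-1β and 258 to 371 for the interaction. With the longest transcript as length, Lfng and Notch3 changed places in palmitate. Low counts limit the folds of Heyl, Hey2, Nrarp and Neurl3, and Mfng could not be tested.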
